A study of Mus musculus with 18 samples.

Results

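Cxcl9, Cxcl10 and Cxcl11 are the genes of the 3 interferon-induced CXC chemokines that bind the receptor CXCR3. They lie side by side on mouse chromosome 5, where Cxcl11 is annotated as noncoding, as described below. Chromatin accessibility at this locus was examined by ATAC-seq, in which a transposase cuts open DNA so that reads pile up where chromatin is accessible. The locus was taken as every peak of the deposited table that overlapped the body of one of the 3 genes or the 25 kb on either side of it, with gene positions from GENCODE M1 on build mm9. It held 39 of 194284 peaks, of which the authors classed 10 as promoter and 29 as distal. The peaks are numbered P1 to P39 by position and fall within chr5:92725357-92819511 (mm9). Within 25 kb of Cxcl9 there were 22 of them, within 25 kb of Cxcl10 21 and within 25 kb of Cxcl11 26, so that many peaks belong to more than 1 gene.

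The cells were bone marrow-derived macrophages (BMDMs) grown for 6 days in L929-conditioned medium from 3 male Il10-/- mice on the C57BL/6J background, 12 weeks old, with 3 libraries in each condition and 18 libraries in all. Every group, the controls included, lacked endogenous IL-10. The 6 groups were unstimulated cells, cells given 500 nM (+)-JQ1 alone or 10 ng/mL IL-10 alone, cells with no pretreatment (vehicle, in the study's methods) that were then exposed to LPS at 50 ng/mL during the last 4 hours (LPS), and cells that received (+)-JQ1 or IL-10 for 12 hours ahead of that LPS exposure (LPS + (+)-JQ1 and LPS + IL-10). (+)-JQ1 is a small-molecule inhibitor of the BET family of bromodomain proteins, which read acetylated chromatin, and LPS comes from the outer membrane of Gram-negative bacteria. Libraries held 12020526 to 25908198 counts in peaks. Values are CPM, the counts of a peak relative to the library's total, after TMM scaling, on which 1 count was worth 0.0388 to 0.0768 CPM depending on the library. All 6 macrophage marker genes fixed for the check (Csf1r, Spi1, Itgam, Adgre1, Cd14 and Fcgr1) had a promoter peak, with mean values between 12.8 and 35.3 CPM. Of the T cell genes Cd3e, Cd3g and Cd2, only Cd2 had one, at 1.08 CPM, but 2 of 3 neutrophil genes and 2 of 3 fibroblast genes also had promoter peaks, at 27.5 CPM for Elane and 23.0 CPM for Pdgfra, and 2 of 3 B cell genes did, at up to 5.19 CPM. The part of other cells in the results was not tested. In bulk samples, fewer cells with an open site and less opening per cell cannot be told apart.

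As background, CXCL9, CXCL10 and CXCL11 attract activated T cells and natural killer cells. LPS acts on macrophages through TLR4, whose adaptor TRIF leads through the kinases TBK1 and IKKε to IRF3 and interferon-β, and interferon in turn acts through JAK kinases on transcription factors that include STAT2 and IRF9. Cxcl9 is best known as a target of interferon-γ, whereas Cxcl10 responds to both types of interferon and to NF-κB. IL-10 restrains the response of macrophages to LPS. In the RefSeq table of the reference strain (GRCm38.p6), Cxcl11 is annotated as a transcribed pseudogene, and GENCODE M1 lists its transcripts as noncoding. All 3 genes are transcribed from the minus strand, from higher to lower coordinates. Art3, an unrelated gene of the plus strand, starts between Cxcl9 and Cxcl10 and spans both Cxcl10 and Cxcl11, so that most peaks around these 2 chemokines are also intronic to Art3. Sdad1 lies beyond Cxcl9, and the pseudogene Gm2673 overlaps Cxcl11.

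The sequences before the chemokine starts are shown because the promoter peaks described later lie over them. The RefSeq promoter table held 2 of the 3 members, Cxcl9 and Cxcl10, and each sequence matched the mm9 genome at a single place on chromosome 5. The 250 bases before the start of Cxcl9 (chr5:92757106-92757355, minus strand) and of Cxcl10 (chr5:92777916-92778165, minus strand) are written 5′ to 3′. The third sequence is the stretch at the centre of peak P26 that ends just before the start of the shorter Cxcl11 transcript (chr5:92792304-92792492, minus strand), and the fourth is the central 300 bases of P16, a distal peak in an Art3 intron (chr5:92769187-92769486, minus strand), both read from mm9. P16 is shown because it had the largest fall under (+)-JQ1 of the peaks called. Capitals mark every match to 4 motifs searched on both strands, the IRF repeat GAAANNGAA, the GAS element TTCNNNGAA of interferon-responsive genes, the AP-1 element TGANTCA and the κB consensus.
Cxcl9 promoter: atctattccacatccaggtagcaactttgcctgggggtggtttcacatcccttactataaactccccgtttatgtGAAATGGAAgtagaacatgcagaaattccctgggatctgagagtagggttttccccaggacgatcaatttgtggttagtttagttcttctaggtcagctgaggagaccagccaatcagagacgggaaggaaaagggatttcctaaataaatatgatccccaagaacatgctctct
Cxcl10 promoter: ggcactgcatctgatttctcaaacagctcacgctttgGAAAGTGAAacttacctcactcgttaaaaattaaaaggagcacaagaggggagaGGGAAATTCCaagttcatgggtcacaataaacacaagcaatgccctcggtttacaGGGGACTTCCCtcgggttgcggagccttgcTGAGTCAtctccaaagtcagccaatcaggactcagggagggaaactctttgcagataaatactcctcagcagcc
P26: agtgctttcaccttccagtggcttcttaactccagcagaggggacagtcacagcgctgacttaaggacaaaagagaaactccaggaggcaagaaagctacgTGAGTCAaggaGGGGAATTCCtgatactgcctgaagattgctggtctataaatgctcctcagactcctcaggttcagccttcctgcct
P16: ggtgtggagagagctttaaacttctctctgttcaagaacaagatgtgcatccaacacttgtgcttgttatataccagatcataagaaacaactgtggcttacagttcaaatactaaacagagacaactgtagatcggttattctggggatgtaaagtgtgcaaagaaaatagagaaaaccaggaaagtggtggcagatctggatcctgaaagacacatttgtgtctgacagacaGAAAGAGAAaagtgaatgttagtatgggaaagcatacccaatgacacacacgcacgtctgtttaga

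In the Cxcl10 promoter, an IRF repeat lay at -213 to -205 from the transcript start, a κB match at -159 to -150, and 2 κB matches overlapped each other at -104 to -95 and -103 to -94. An AP-1 element followed at -74 to -68. The Cxcl9 promoter held an IRF repeat at -175 to -167 and, within the transcript, an AP-1 element at 32 to 38. The P26 sequence held an AP-1 element and a κB match, and P16 held an IRF repeat. Of the 32851 RefSeq promoters of the same 300 bases (250 before to 50 after the start), 8.56% held an IRF repeat, 8.30% a GAS element, 7.81% an AP-1 element and 8.46% a κB match. Over the central 300 bases of all 194284 peaks the shares were 10.1%, 8.74%, 12.1% and 5.98%, and over the 39 locus peaks they were 17.9% (7 peaks), 2.56% (1 peak), 12.8% (5 peaks) and 10.3% (4 peaks). The central windows of P17, P18, P19, P20, P21 and P22, which carried the largest part of the response around Cxcl10, held none of the 4, which says only that these letters were absent from those windows. The window of P21 (chr5:92778233-92778532) lies upstream of the Cxcl10 promoter sequence shown. P21 also covers that sequence, whose matches are not counted in the shares of the locus peaks. A match is a run of letters and was not tested as a binding site.

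LPS opened the locus most strongly around Cxcl10. Of the 39 peaks, 23 were higher in LPS than in unstimulated cells by the call used throughout (edgeR FDR under 0.05 and an absolute log2 fold change above 0.5), against 11.7% of the 194230 peaks tested genome-wide. None was called lower by edgeR, by DESeq2 or at an unadjusted edgeR p under 0.05, where 10.2% of all peaks were called lower. All 39 peaks passed the filter on low counts. The median log2 fold change was 0.96 over the 39 peaks and -0.03 over all peaks. By the nearest chemokine start, 10 of 10 peaks nearest to Cxcl10 were called higher (median log2 fold change 2.33), 9 of 15 nearest to Cxcl11 (0.81) and 4 of 14 nearest to Cxcl9 (0.57).

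As a share of each library's counts in peaks, which scales by the total alone, the locus held 0.0157% ± 0.000121 of all peak counts in unstimulated cells and 0.0350% ± 0.00169 in LPS (SD, n = 3), a ratio of 2.24. Every LPS library, from 0.0333% to 0.0366%, was above every unstimulated library, from 0.0156% to 0.0158%. The peaks nearest to Cxcl10 made up 23.1% ± 1.57 of the locus counts before LPS and 44.7% ± 1.10 after it (SD, n = 3), and the share of those nearest to Cxcl9 went from 33.0% ± 1.42 to 19.9% ± 0.277. The shares add up to the whole within a library, so that one can grow only as another shrinks.

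**Figure D1:**
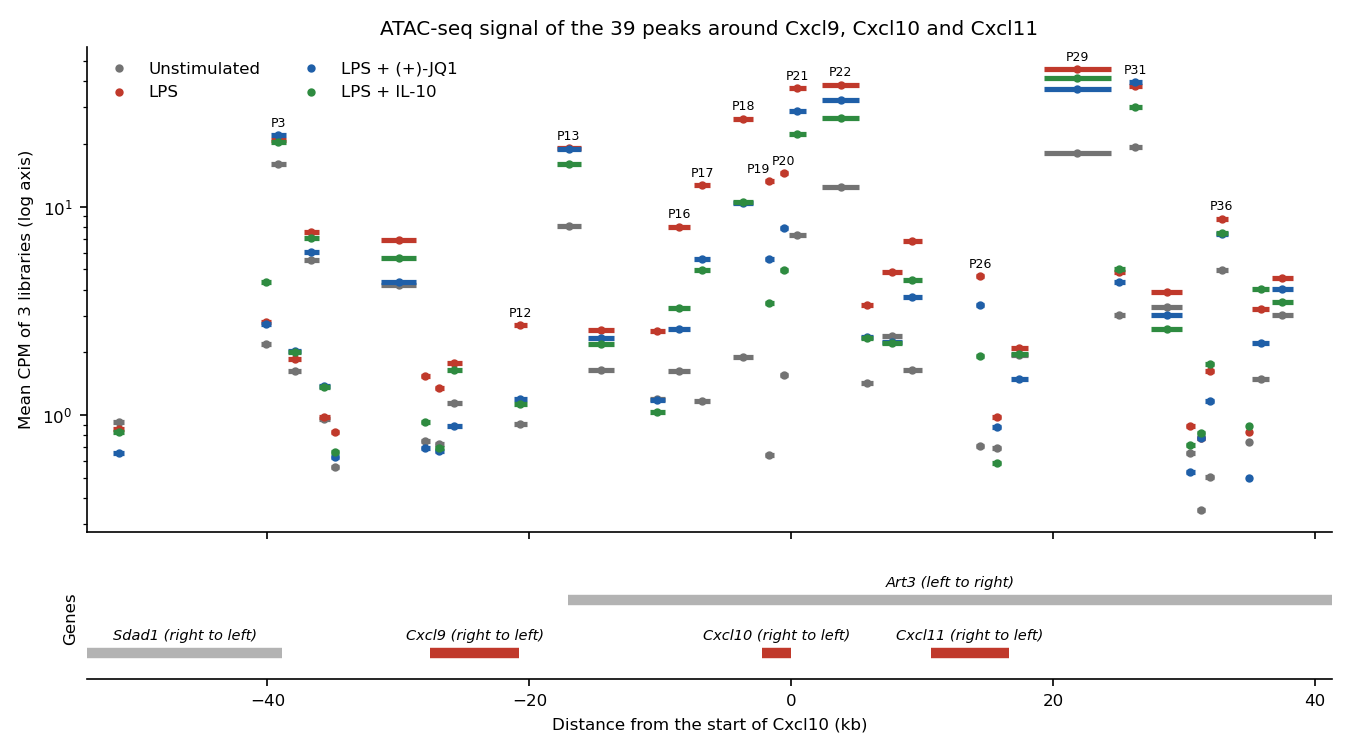
Mean CPM of 3 libraries (y axis, log scale) for each of the 39 peaks against the distance from the Cxcl10 start in kb (x axis), with the width of each bar drawn to the peak's width and the genes below. Grey is unstimulated, red LPS, blue LPS + (+)-JQ1 and green LPS + IL-10. The widest gaps between grey and red are at P17 to P20, just beyond the 3′ side of Cxcl10 and within it, followed by P26 at Cxcl11.

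The promoter peak of Cxcl10, P21 (chr5:92777764-92779001, over the first exon with its UTR and the bases upstream), was the most accessible of the chemokine promoter peaks. It measured 7.03, 7.03 and 7.89 CPM in the 3 unstimulated libraries and 37.3, 37.4 and 35.9 CPM in the 3 LPS libraries. The groups did not overlap, and the peak rose 5.03-fold (log2 fold change 2.33 ± 0.14 SE, edgeR FDR 4.23e-27). Per kb of peak this was 5.92 CPM before and 29.8 CPM after LPS, against 0.944 and 2.80 CPM per kb at the Cxcl9 promoter peak.

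Larger folds were seen inside Cxcl10 and on its 3′ side. P19 (chr5:92775888-92776562, over the last exon and UTR of Cxcl10) measured 0.669, 0.659 and 0.603 CPM in unstimulated cells and 13.7, 11.2 and 14.8 CPM in LPS. The lowest LPS library was above the highest unstimulated one, and the 20.4-fold rise (log2 4.35 ± 0.25 SE, edgeR FDR 6.48e-29) was the largest of the locus. The unstimulated values at P19 rest on 10, 12 and 11 counts, so the size of this fold is less certain than its direction. P18 (chr5:92773478-92774994, 3679 bases downstream of the Cxcl10 start by its centre and over an exon of Art3) measured 2.54, 1.92 and 1.26 CPM without and 22.9, 25.5 and 30.7 CPM with LPS. P18 therefore rose 14.0-fold (log2 3.80 ± 0.19 SE, edgeR FDR 1.63e-33) with no overlap. P17 (chr5:92770516-92771677, in an Art3 intron 6819 bases downstream of the Cxcl10 start) measured 0.602, 1.43 and 1.48 CPM without and 11.2, 12.8 and 14.0 CPM with LPS. Its rise was 10.5-fold (log2 3.39 ± 0.23 SE, edgeR FDR 6.35e-24), again without overlap.

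Between these and the promoter, P20 (chr5:92777077-92777625, over an exon of Cxcl10) rose 9.29-fold from 1.56 ± 0.493 to 14.4 ± 3.42 CPM (SD, n = 3). On the upstream side, P22 (chr5:92780282-92783108, in an Art3 intron 3780 bases before the Cxcl10 start) was already open in unstimulated cells at 12.4 ± 2.16 CPM and rose 3.09-fold to 38.5 ± 0.774 CPM (SD, n = 3). P16 (chr5:92768476-92770197) rose 5.02-fold, from 1.63 ± 0.751 to 8.02 ± 0.935 CPM. All 3 peaks passed the test and had no overlap between the groups. Replicate 1 was sequenced in one lane in every group and replicate 3 in another, which gives a value within each lane. The log2 fold change with LPS was 4.16 in replicate 1 and 4.39 in replicate 3 at P19, and 2.39 and 2.17 at P21. With lane as a covariate 22 of the 39 peaks were called higher.

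The Cxcl9 promoter was far less accessible. P12 (chr5:92756732-92757695, over the first exon and UTR of Cxcl9) measured 1.14, 0.659 and 0.932 CPM in unstimulated cells and 2.44, 1.60 and 4.06 CPM in LPS. The LPS libraries lay above the unstimulated ones but spread widely, and the peak rose 2.95-fold (log2 1.56 ± 0.36 SE, edgeR FDR 3.88e-04). P10 and P11, which overlap exons of Cxcl9, did not pass the test, while P8 and P9 beyond its 3′ end were called higher. These calls held in 10 and 5 of 12 alternatives.

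Of the 3 peaks at Cxcl11 starts only P26 was called with LPS alone. P26 (chr5:92792029-92792655, at the start of the shorter transcript) measured 0.201, 1.32 and 0.603 CPM in unstimulated cells and 5.05, 4.74 and 4.12 CPM in LPS, without overlap. It rose 6.31-fold (log2 2.66 ± 0.31 SE, edgeR FDR 1.03e-11), and without replicate 2 the log2 fold change was 3.44. P27, which lies within the longer transcript, went from 0.695 ± 0.116 to 0.980 ± 0.496 CPM (SD, n = 3, edgeR FDR 0.482), and P28, upstream of the longer transcript, from 1.93 ± 0.793 to 2.11 ± 0.604 CPM (edgeR FDR 0.751). In both, the libraries of the 2 groups overlapped. P27 averaged 14.0 counts per library and P28 31.4, at which the 95% intervals of their log2 fold changes, -0.50 to 1.41 and -0.49 to 0.80, leave room for sizeable changes in either direction.

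The remaining peaks named for their signal lay away from the chemokine starts. P29, the widest peak of the locus (chr5:92797172-92802288, 5116 bp, upstream of Cxcl11), rose 2.52-fold from 18.1 ± 2.36 to 45.7 ± 1.43 CPM (SD, n = 3). P31 (chr5:92803696-92804654) rose 1.95-fold from 19.4 ± 4.92 to 37.8 ± 1.28 CPM, and P36 1.75-fold from 4.96 ± 0.571 to 8.75 ± 0.702 CPM. P13, at the start of Art3, rose 2.37-fold from 8.03 ± 0.436 to 19.1 ± 1.89 CPM. P3 at the Sdad1 promoter (16.1 ± 3.54 and 20.8 ± 1.68 CPM) and P5 next to it (5.53 ± 1.47 and 7.52 ± 1.06 CPM) were not called. The 16 peaks not called in this comparison had log2 fold changes between -0.10 and 1.13, and 15 of the 16 were above 0.

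**Figure D2:**
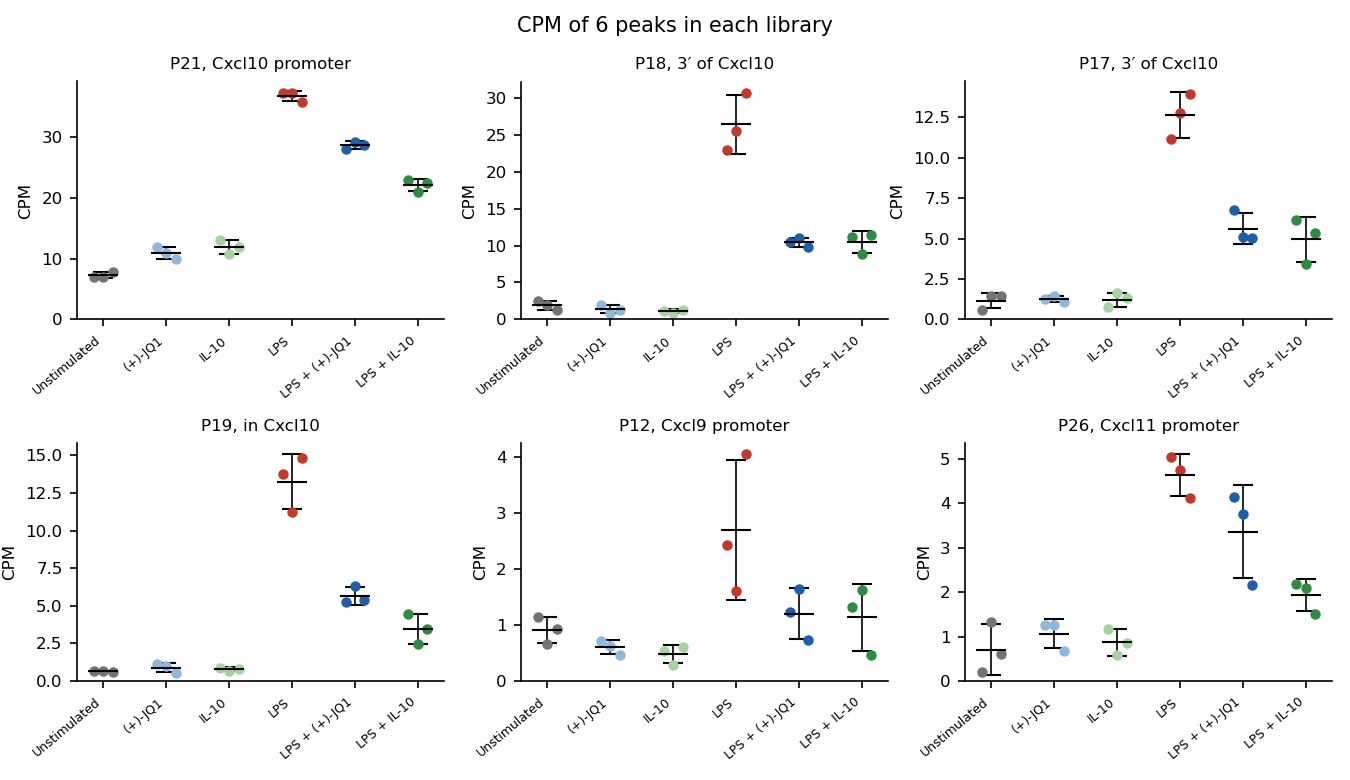
CPM (y axis, linear from 0) of 6 peaks in each of the 18 libraries, by group (x axis). Points are libraries, horizontal bars the mean of 3 and error bars the SD. At P17, P18 and P19 the LPS libraries stand apart from all others, while the spread of the 3 LPS libraries at P12 reaches from 1.60 to 4.06 CPM.

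To see how BET protein inhibition affected the locus during LPS stimulation, LPS + (+)-JQ1 was compared with LPS. In this comparison 10 of the 39 peaks were lower, against 3.49% of all peaks tested, and none was higher by edgeR, by DESeq2 or at an unadjusted p under 0.05, against 1.74% of all peaks called higher. Those lower were P8 beyond the 3′ end of Cxcl9, the Cxcl9 promoter peak P12, P15 to P20 on the 3′ side of and within Cxcl10, and P24 and P25 between Cxcl10 and Cxcl11. The median log2 fold change over the locus was -0.46, and -0.003 over all peaks.

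P18 measured 10.4, 11.1 and 9.77 CPM in LPS + (+)-JQ1, below all 3 LPS libraries and above all 3 unstimulated ones. The value was 2.53-fold lower than with LPS alone (log2 -1.34 ± 0.15 SE, edgeR FDR 3.15e-11). P16 had the largest fall, with 3.07, 2.18 and 2.52 CPM against 8.91, 8.09 and 7.05 CPM in LPS. The groups did not overlap, and the difference was 3.13-fold (log2 -1.65 ± 0.22 SE, edgeR FDR 1.46e-08). P19 measured 5.22, 6.33 and 5.35 CPM, 2.35-fold lower (log2 -1.23 ± 0.18 SE, edgeR FDR 2.90e-07), and P17 measured 6.75, 5.08 and 5.04 CPM, 2.27-fold lower (log2 -1.18 ± 0.19 SE, edgeR FDR 1.69e-06). Both had no overlap with LPS.

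The promoter peaks differed less clearly. P21 at Cxcl10 measured 28.01, 29.3 and 28.8 CPM, below every LPS library, but its 1.28-fold difference was not called (log2 -0.36 ± 0.13 SE, edgeR FDR 0.0811). P26 at Cxcl11 measured 4.14, 3.77 and 2.17 CPM, overlapping LPS, with a log2 fold change of -0.50 (95% interval -1.06 to 0.05, edgeR FDR 0.283). P12 at Cxcl9 measured 1.23, 1.64 and 0.737 CPM and was called 2.27-fold lower (log2 -1.18 ± 0.34 SE, edgeR FDR 0.0199), although 1 of its libraries was above the lowest LPS library. The call at P12 rested on replicate 3, whose LPS library held the highest value, and without replicate 3 the log2 fold change was -0.48 (edgeR FDR 0.671). DESeq2 did not call P12 either (adjusted p 0.0566). P20 was called lower (7.87 ± 1.76 CPM, 1.86-fold) and likewise was not without replicate 3 (log2 -0.52, edgeR FDR 0.224) or by DESeq2 (adjusted p 0.114). P29, P31, P13 and P36, which LPS had also opened, were 36.8 ± 2.08, 39.6 ± 2.03, 18.9 ± 2.06 and 7.37 ± 0.208 CPM (SD, n = 3) and were not called different from LPS. Without replicate 3 the count of locus peaks called lower was 4 in place of 10, and over all peaks it was 3604 in place of 6770.

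IL-10 was added to ask how the missing cytokine itself acts at the same sites. In LPS + IL-10 against LPS, 12 of the 39 peaks were lower (4.51% of all peaks were) and 1 was higher (4.26% of all peaks were). The 12 were P12, P15 to P22, P24, P25 and P26, and the median log2 fold change was -0.34 over the locus and -0.01 over all peaks. The LPS libraries are the same as in the comparison with (+)-JQ1, so the 2 sets of differences are not independent.

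P19 had the largest fall, with 4.47, 2.43 and 3.45 CPM, all below the LPS libraries. The difference from LPS was 3.81-fold (log2 -1.93 ± 0.19 SE, edgeR FDR 6.55e-14). P20, P17 and P18 measured 4.99 ± 0.538, 4.96 ± 1.40 and 10.5 ± 1.45 CPM (SD, n = 3) and were 2.88-fold, 2.52-fold and 2.51-fold lower, without overlap. The Cxcl10 promoter peak P21 measured 23.0, 21.03 and 22.6 CPM, without overlap with LPS, and was 1.66-fold lower (log2 -0.73 ± 0.13 SE, edgeR FDR 1.21e-05). P26 at Cxcl11 measured 2.18, 2.09 and 1.52 CPM, 2.42-fold lower (log2 -1.28 ± 0.27 SE, edgeR FDR 2.53e-04), also without overlap. P22 was 1.45-fold lower at 26.5 ± 4.06 CPM (SD, n = 3), a call that was lost without replicate 2 (log2 -0.43, edgeR FDR 0.212). With total counts or loess scaling its log2 fold change was -0.47 and missed the fold threshold alone.

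P12 at Cxcl9 measured 1.32, 1.62 and 0.459 CPM and was called 2.39-fold lower (edgeR FDR 0.0072), with 1 library above the lowest LPS library. Without replicate 3 its log2 fold change was -0.46 (edgeR FDR 0.600). The peak that was higher, P2 in an intron of Sdad1, measured 5.03, 3.94 and 4.09 CPM against 2.44, 3.00 and 2.99 CPM in LPS (log2 0.64 ± 0.22 SE, edgeR FDR 0.044), a call that each left-out replicate removed. P16 was 2.45-fold lower at 3.28 ± 0.137 CPM. P29, P31, P13 and P36 were 41.6 ± 3.37, 29.9 ± 5.01, 16.1 ± 2.03 and 7.45 ± 0.141 CPM and were not called.

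**Figure D3:**
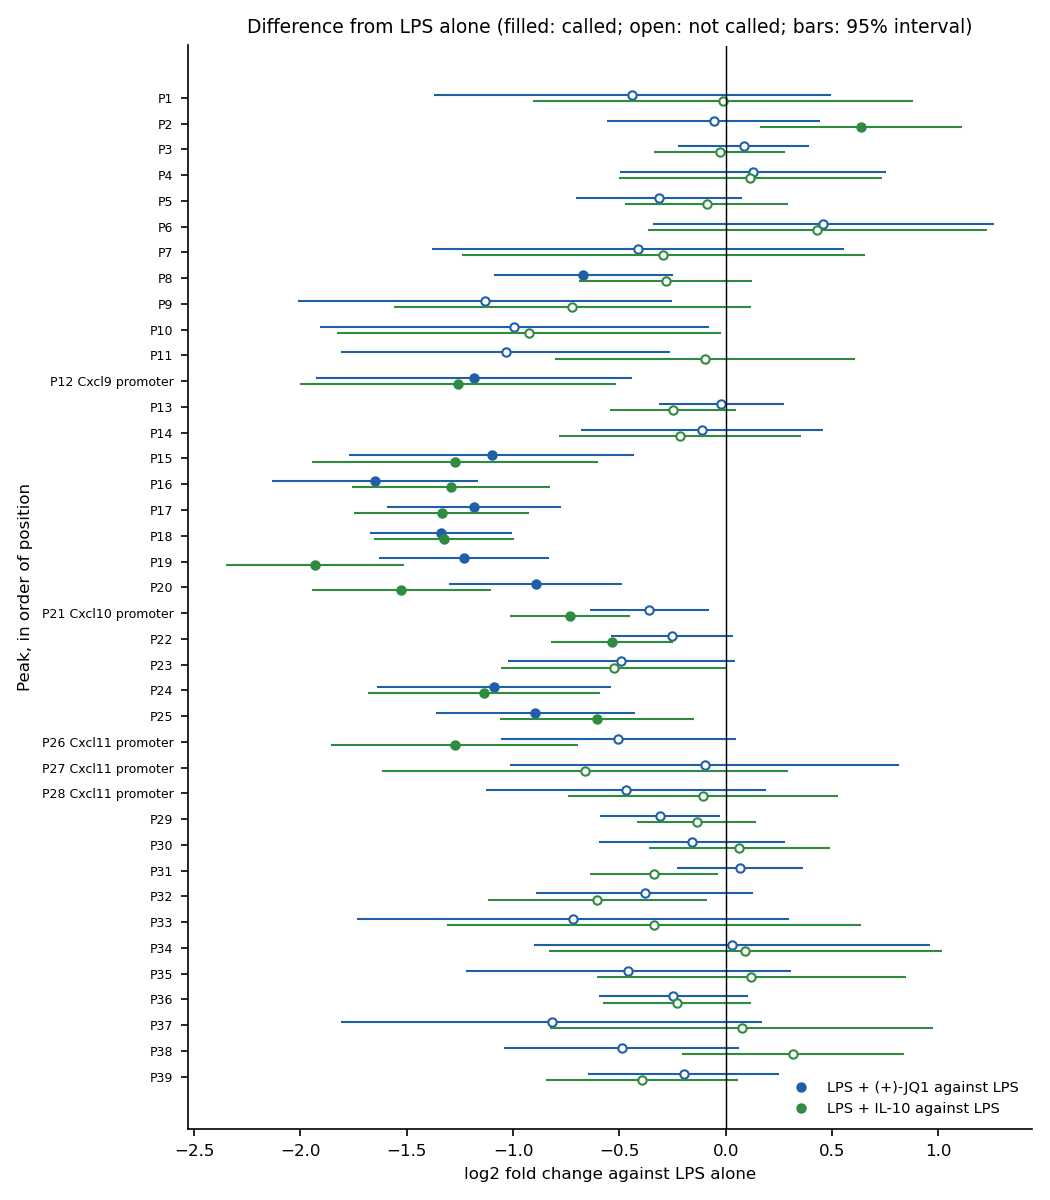
The log2 fold change of LPS + (+)-JQ1 (blue) and LPS + IL-10 (green) against LPS (x axis) for each of the 39 peaks in order of position (y axis). Filled points passed the call, open points did not, and bars are 95% intervals. The filled points gather at P15 to P25, and at the Cxcl10 promoter P21 and the Cxcl11 promoter P26 only the IL-10 point is filled.

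The 2 pretreated groups were compared with each other directly. Under LPS, 2 of the 39 peaks were higher with (+)-JQ1 than with IL-10 (3.43% of all peaks) and 2 were lower (4.68% of all peaks). The higher ones were the peaks within Cxcl10, P19 (1.62-fold, log2 0.70 ± 0.20 SE, edgeR FDR 0.0133) and P20 (1.55-fold, log2 0.63 ± 0.20 SE, edgeR FDR 0.0277). P2 and P38 were 1.62-fold and 1.75-fold lower. None of these 4 calls held with each replicate left out in turn. At the promoters, P21 was 1.29-fold higher with (+)-JQ1 (95% interval of the log2 difference 0.09 to 0.66, edgeR FDR 0.0532) with no overlap of libraries, and P26 1.71-fold higher (0.17 to 1.37, edgeR FDR 0.0585) with overlap. At P18 the means, 10.4 and 10.5 CPM, were nearly equal.

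The share of all peak counts in the locus was 0.0263% ± 1.36e-05 in LPS + (+)-JQ1 and 0.0257% ± 0.000776 in LPS + IL-10 (SD, n = 3), which is 0.752 and 0.736 of the share in LPS. Both groups lay below every LPS library and above every library without LPS. The part nearest to Cxcl10 was 36.2% ± 0.523 of the locus counts in LPS + (+)-JQ1 and 32.1% ± 2.07 in LPS + IL-10, between the values of unstimulated and LPS-treated cells.

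**Figure D4:**
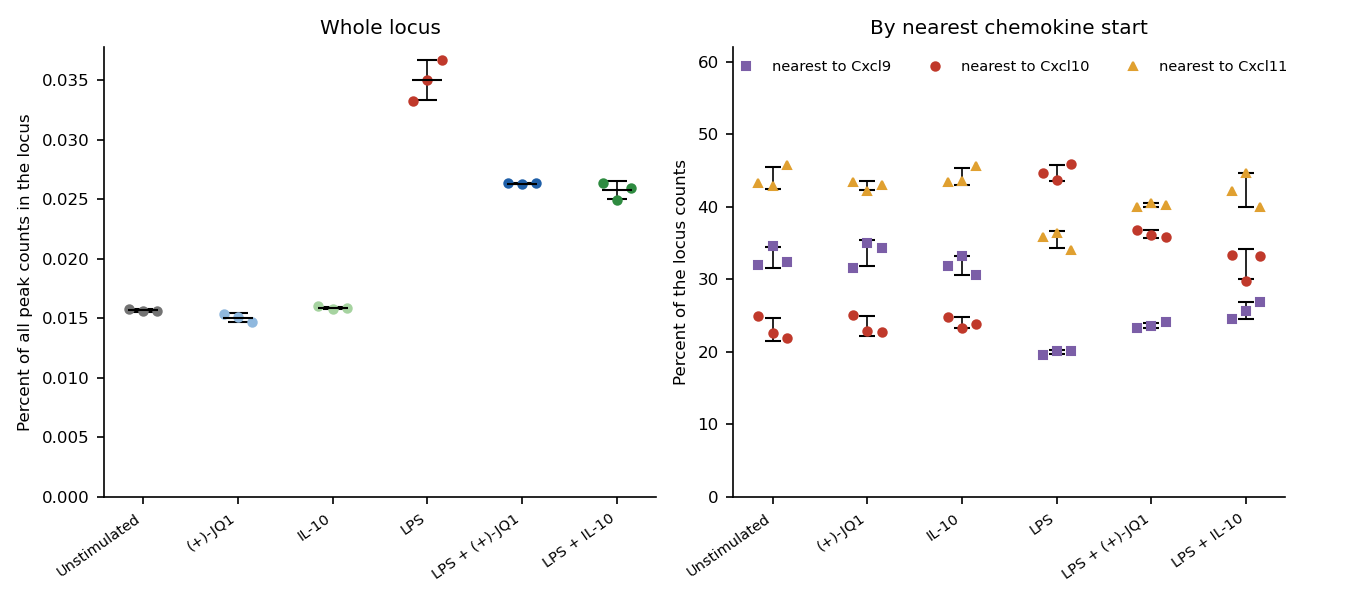
Left, the percent of each library's peak counts that fell in the 39 locus peaks (y axis, from 0), and right, the percent of the locus counts in peaks nearest to each chemokine start (y axis, from 0), by group (x axis). Points are libraries and error bars the SD around the mean of 3. The LPS libraries are highest on the left, and on the right the peaks nearest to Cxcl10 exceed those nearest to Cxcl11 in LPS alone.

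Without LPS, few locus peaks were called with either pretreatment, close to the shares over all peaks. With (+)-JQ1 alone, 2 of the 39 peaks were higher than in unstimulated cells (7.85% of all peaks) and 1 was lower (3.15% of all peaks). With IL-10 alone 2 were higher (5.16% of all peaks) and none was lower (3.5% of all peaks) by edgeR or DESeq2, although 9 were at an unadjusted edgeR p under 0.05. The Cxcl10 promoter peak P21 was higher in both comparisons, which share the unstimulated libraries. P21 measured 12.0, 11.0 and 10.0 CPM in (+)-JQ1, 1.50-fold above unstimulated cells (log2 0.59 ± 0.15 SE, edgeR FDR 0.00294), and 13.03, 10.7 and 12.0 CPM in IL-10, 1.63-fold above (log2 0.70 ± 0.15 SE, edgeR FDR 6.19e-04). Neither group overlapped the unstimulated libraries. The sizes depend on the scaling, since with total counts the log2 fold changes were 0.31 and 0.50 and with loess offsets 0.21 and 0.39, and none of the 4 was called. The other calls were P3 (higher) and P32 (lower) with (+)-JQ1 and P31 (higher, 28.6 ± 2.18 CPM) with IL-10, and P12, P26, P27 and P28 were not called in either. At P17, P18 and P19, where LPS had the largest effect, the means with (+)-JQ1 alone were 1.27, 1.35 and 0.879 CPM and with IL-10 alone 1.22, 1.12 and 0.772 CPM.

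The response to LPS within each pretreatment uses other control libraries than the untreated response. Against (+)-JQ1 alone, 17 of the 39 peaks were higher in LPS + (+)-JQ1 (5.69% of all peaks) and none was lower (3.58% of all peaks). Against IL-10 alone, 21 were higher in LPS + IL-10 (8.93% of all peaks) and none was lower (6.47% of all peaks). Neither count of 0 by edgeR changed with DESeq2 or at an unadjusted p under 0.05. Of the 23 peaks that rose without pretreatment, 14 were among the 17 and 17 among the 21. P18 rose 7.56-fold in the presence of (+)-JQ1 and 9.29-fold in that of IL-10, and P19 6.50-fold and 4.47-fold. P21 rose 2.61-fold and 1.86-fold, and P26 3.12-fold and 2.20-fold. P26 with IL-10 was not called without replicate 2 (log2 0.86, edgeR FDR 0.142). P28 at Cxcl11 was called 1.83-fold higher with IL-10, from 1.08 to 1.96 CPM (edgeR FDR 0.0413), but not by DESeq2 (adjusted p 0.0775), with lane as a covariate (edgeR FDR 0.0515) or without replicate 1 (0.117) or 3 (log2 0.56, 0.427). P12 was called 2.29-fold higher with IL-10 (edgeR FDR 0.0324), with overlap between the libraries, and was not called with (+)-JQ1 (log2 0.96, edgeR FDR 0.142), without overlap. With IL-10 the call was lost by DESeq2 (adjusted p 0.059), without replicate 1 (edgeR FDR 0.139) and without replicate 2 (log2 0.60, edgeR FDR 0.497).

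**Figure D5:**
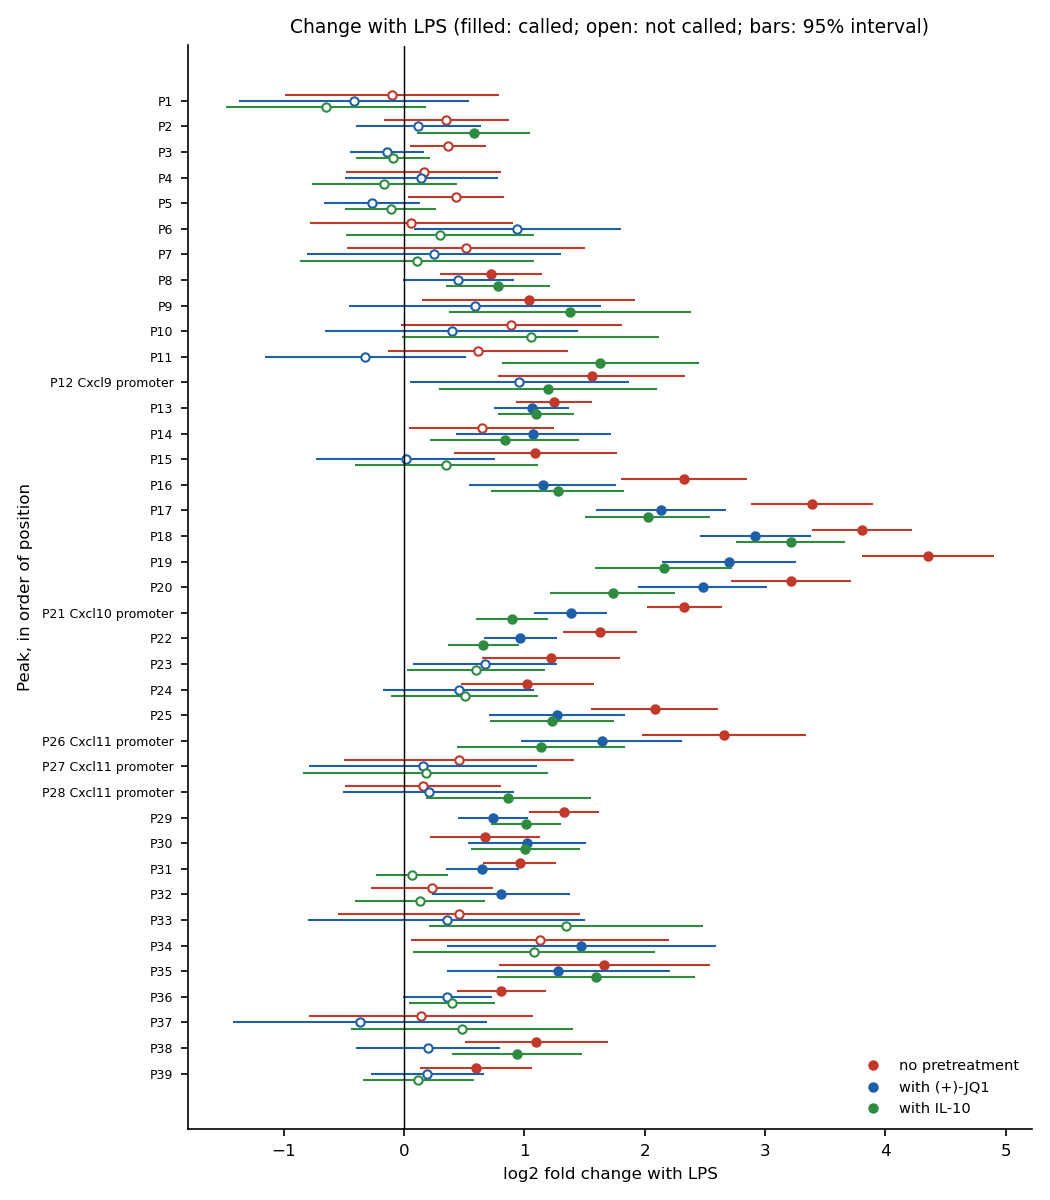
The log2 fold change with LPS (x axis) without pretreatment (red), with (+)-JQ1 (blue) and with IL-10 (green) for each of the 39 peaks in order of position (y axis). Filled points passed the call, open points did not, and bars are 95% intervals. From P15 to P26 the red points lie to the right of the others, with the largest red value, 4.35, at P19.

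Whether the response itself differed was tested by the interaction of LPS with each pretreatment. For (+)-JQ1, 4 of the 39 peaks had a smaller response (3.19% of all peaks) and none a larger one (0.649% of all peaks). These were P17, P19, P21 and P22. For IL-10, 7 had a smaller response (5.9% of all peaks) and none a larger one (2.01% of all peaks), namely P17, P19 to P22, P26 and P31. No larger response was found at the locus with DESeq2 or at an unadjusted edgeR p under 0.05 for either pretreatment. The balance over all peaks turned with the scaling. With total counts, 4674 peaks had a larger and 1838 a smaller response for (+)-JQ1, and 12207 and 5152 for IL-10. With loess offsets the numbers were 1496 and 1083 for (+)-JQ1, and 4133 and 3907 for IL-10. Within the locus the difference in response was largest at P19, with a log2 interaction of -1.65 ± 0.41 SE for (+)-JQ1 (edgeR FDR 0.0109) and -2.19 ± 0.40 SE for IL-10 (edgeR FDR 9.91e-05). At the Cxcl10 promoter P21 it was -0.95 ± 0.20 SE (edgeR FDR 0.0030) and -1.43 ± 0.20 SE (edgeR FDR 1.65e-07). The interaction at P21 combines a higher value before LPS with a lower one after it. At P22 the log2 difference with (+)-JQ1 was 0.41 before LPS and -0.25 after it, and neither was called. At P31 the log2 difference with IL-10 was 0.56 before LPS and -0.34 after it, the latter not called. With loess offsets these 2 interactions were -0.28 (edgeR FDR 0.38) and -0.40 (edgeR FDR 0.0398) and were not called. At the Cxcl9 promoter P12 neither interaction was called, with 95% intervals of -1.83 to 0.62 and -1.60 to 0.87. Without replicate 2 no interaction with (+)-JQ1 was called at the locus and 3 with IL-10 were, and without replicate 1 there was 1 with (+)-JQ1. Over all peaks the smaller responses called with (+)-JQ1 also fell, from 6202 to 87 without replicate 2 and to 823 without replicate 1. Those with IL-10 fell from 11454 to 1135 without replicate 2.

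The genes that carry the LPS and interferon signal were read from the most accessible promoter peak of each of 25 genes fixed for this purpose, all of which had one. With LPS, 15 of the 25 promoter peaks were higher and none was lower, where 14.3% and 6.71% of the 36666 promoter peaks tested genome-wide were, and the median log2 fold change was 0.56 against 0.12. Among those that rose, the 8 with the most signal were Irf1, Socs1, Irf5, Ifnar1, Ifngr2, Stat2, Tbk1 and Irf9. The calls on the 25 used TMM scaling only and were not repeated under the alternatives. Irf5 and Ifnar1 were just above the fold threshold, at log2 0.501 and 0.506. With total counts the median of all peaks for LPS moved to -0.26. Without LPS, the means of all 8 were also above unstimulated cells with (+)-JQ1 alone and with IL-10 alone. Ifnar1, Tbk1, Ifngr2 and Irf5 averaged 75.9, 56.6, 64.6 and 66.8 CPM with (+)-JQ1 alone, above their 54.9, 51.6, 59.1 and 60.7 CPM in LPS. Irf1, Socs1, Stat2 and Irf9 were higher in LPS than with either pretreatment alone. These differences without LPS were not tested and may depend on the scaling. With (+)-JQ1 alone, 15247 of all peaks were called higher with TMM, 3828 with total counts and 2737 with loess offsets. With IL-10 alone the numbers were 10021, 2464 and 2956. With LPS, Irf1, an interferon-induced transcription factor, rose from 52.8 ± 10.2 to 102 ± 2.98 CPM (SD, n = 3), and Socs1, a feedback inhibitor of JAK kinases, from 43.6 ± 12.2 to 90.4 ± 9.78 CPM. Stat2 rose from 31.8 ± 7.16 to 66.5 ± 2.75 CPM and Irf9, its partner in the interferon-stimulated complex, from 29.2 ± 6.23 to 55.8 ± 3.19 CPM. In LPS + (+)-JQ1 against LPS, none of the 25 was lower (3.22% of all promoter peaks) and 2 were higher (1.72% of all promoter peaks), Tlr4 and its co-receptor Cd14. Tlr4 averaged 26.1 CPM in LPS and 37.3 CPM in LPS + (+)-JQ1, and Cd14 19.1 and 31.5 CPM. Without LPS, Tlr4 averaged 24.2 CPM in unstimulated cells and 42.1 CPM with (+)-JQ1 alone, and Cd14 15.8 and 35.7 CPM. In LPS + IL-10 against LPS, 3 of the 25 were lower (3.94% of all promoter peaks) and none was higher (3.04% of all promoter peaks). Irf1 and Ifnb1 were among them, and Ifnb1 is named for this count and not by the rule on signal. The promoter of Cxcr3, which encodes the receptor of the 3 chemokines, was at 9.86 ± 1.08 CPM without and 8.28 ± 0.516 CPM with LPS and was not called (edgeR FDR 0.217).

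Peaks elsewhere in the genome that followed the chemokine promoters most closely were sought among the 72725 other peaks with a mean of at least 50 counts, by Pearson correlation of log2 CPM over the 18 libraries. The libraries share 6 groups, so the correlation describes mainly how the groups are ordered. For the Cxcl10 promoter the closest were peaks at the promoters of Ifit1, where 2010002M12Rik also starts (r = 0.988), and of Gbp2 (r = 0.984), both interferon-induced genes, and a peak within Zbtb8a (r = 0.978). For the Cxcl11 peak P26 they were at the promoters of the chemokine-receptor-like gene Ccrl2 (r = 0.952), of Nt5c3 (r = 0.947) and of 2010300C02Rik (r = 0.944). For the Cxcl9 peak P12 they lay within Ints8 (r = 0.926), Ankrd17 (r = 0.897) and Prkch (r = 0.889). By Spearman correlation 1 of the 3 peaks for Cxcl10, 2 of 3 for Cxcl9 and none for Cxcl11 were the same.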

How the data were processed

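ATAC-seq counts of 18 libraries were analysed. Read pairs that mapped uniquely were aligned by the authors to mm9 with bowtie2 in PEPATAC v0.9.0. They called peaks per library with MACS2 and deposited raw counts per peak of the union, which they classed as promoter or distal with ChIPSeeker. The counting tool is not given in the sources used here. The union table has 6 columns that match no sample and were not used. Peak positions were checked against the mm9 reference, and none lay beyond a chromosome end.

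The counts were tested with edgeR 4.0.16 (R 4.3.3) in a quasi-likelihood fit of all 6 groups, with filterByExpr, TMM scaling and Benjamini-Hochberg adjustment over 194230 peaks. A fold change is from the fit. Intervals are 95%, on the log2 scale, for the fitted fold change, and take into account only the spread between these libraries. They use fewer degrees of freedom than the test, so they are wider than its p-values imply. P26 in LPS + (+)-JQ1 against LPS had an unadjusted edgeR p of 0.0487 and an interval of -1.06 to 0.05. Tested on simulated counts for LPS against unstimulated cells, the fit recovered 161 of 200 peaks changed by a log2 of 1.5 and called 6 of the unchanged among 193516. The 200 were drawn only from peaks above a minimum unstimulated mean. P12, P19, P26 and P27, at 0.910, 0.644, 0.707 and 0.695 CPM, were below it, and recovery at such peaks was not measured. The simulation also changed far fewer peaks than the 22790 higher and 19802 lower called in the data.

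The members and lists were chosen with earlier results of these data known. Peaks named are those overlapping the 1000 bases before to 100 after a member's start, the 10 with the highest mean CPM and, in LPS against unstimulated and each pretreatment against LPS, the 3 called peaks with the largest rise and fall. Pathway genes were named where called, up to 8 by mean CPM, and 1 gene of the list is not reported here by name. Promoter sequences are from RefSeq (GRCm38.p6) and were placed on mm9 by exact match.

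The main fit had no term for replicate number and is unpaired. Same-numbered replicates were taken as pairs only for values by replicate number and for the replicate block. This was done since the series' text calls the samples matched and 3 mice were used. No source used here ties a number to a mouse. The mean correlation of their deviations from the group means was 0.0057, against -0.0029 for other pairs. Replicates 1 and 3 were sequenced in different lanes, and replicate 2 was in the first of these lanes in the groups without LPS and in the other in the groups with LPS. Alternatives were DESeq2 1.42.0, other scalings, no filter, a replicate block, a lane covariate, only the groups compared, an FDR of 0.01 and each replicate left out.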

Additional observations from a re-analysis of the deposited data

Results flagged for a closer look

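The response to LPS differed between pretreated and untreated cells by the test of the interaction at several peaks. With (+)-JQ1 the log2 interaction was -1.26 at P17, -1.65 at P19, -0.95 at P21 and -0.66 at P22. With IL-10 it was -1.36 at P17, -2.19 at P19, -1.48 at P20, -1.43 at P21, -0.97 at P22, -1.52 at P26 and -0.89 at P31. A negative value means a smaller rise with LPS in pretreated cells. The direction was the same in 3 of 3 replicate numbers at each of these peaks. The calls at P19 and P21 with IL-10 held in all 12 alternatives, and each of the others was lost in at least 1. At P26 the value was -0.90 without replicate 1 (edgeR FDR 0.416) and -2.58 without replicate 2. Groups of 3 libraries are too small for the search for single stray samples.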

How the results depend on the processing

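No called peak changed direction in any of the 12 alternatives, in any of the 10 comparisons. The calls that held in all 12 were 15 of 23 for LPS against unstimulated, 4 of 10 for LPS + (+)-JQ1 and 8 of 13 for LPS + IL-10 against LPS, 12 of 17 and 13 of 21 for LPS within (+)-JQ1 and within IL-10, 2 of 7 for the interaction with IL-10, and 0 for the other 4 comparisons. The cause of the losses was not tested.

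The number of peaks called, higher and lower together, ranged with 1 replicate left out from 18 to 21 for LPS against unstimulated, from 4 to 10 for LPS + (+)-JQ1 and at 10 throughout for LPS + IL-10 against LPS. It ranged from 0 to 6 for (+)-JQ1 alone and 0 to 7 for IL-10 alone, from 13 to 15 and 15 to 17 for LPS within (+)-JQ1 and within IL-10, from 0 to 2 for LPS + (+)-JQ1 against LPS + IL-10, and from 0 to 6 and 3 to 8 for the interactions with (+)-JQ1 and IL-10. Over all peaks, 3011 to 5618 were then called lower for LPS + (+)-JQ1 against LPS. In the interaction with (+)-JQ1 it was 87 to 9477. The balance of higher and lower calls for the pretreatments alone turned with the scaling. With total counts, 5 locus peaks were lower and 0 higher for both (+)-JQ1 and IL-10 alone, where the median of all peaks moved to -0.37 and -0.26, and with loess offsets 1 was lower with (+)-JQ1 and 0 were called with IL-10. Of all 194230 peaks, total counts called 27370 lower and 3828 higher with (+)-JQ1, and 16658 and 2464 with IL-10. Loess offsets called 4142 lower and 2737 higher with (+)-JQ1, and 2856 and 2956 with IL-10. At an FDR of 0.01, 0 peaks were called between LPS + (+)-JQ1 and LPS + IL-10 and 1 in the interaction with (+)-JQ1, in which total counts and loess offsets called 2 each and DESeq2 7. A window of 10 kb held 28 peaks and one of 50 kb 52.

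With the replicate block, which pairs libraries by replicate number, 23, 10, 13, 3, 2, 16, 21, 4, 4 and 8 peaks were called in the order LPS against unstimulated, (+)-JQ1 under LPS, IL-10 under LPS, (+)-JQ1 alone, IL-10 alone, LPS within (+)-JQ1, LPS within IL-10, the 2 pretreatments under LPS, and the 2 interactions. The block lost P34 for LPS within (+)-JQ1 (edgeR FDR 0.0575) and gained P16 for the interaction with IL-10 (0.0489), and changed no other call.

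Among the promoter peaks, 17 log2 values that were not called turned sign. With total counts these were -0.082 at P28 for LPS and -0.076 at P27 for (+)-JQ1 alone, and with loess offsets -0.092 at P28 for the interaction with (+)-JQ1. The others turned when 1 replicate was left out. The range was then -0.051 to 0.79 for LPS, -0.36 to 0.29 for LPS + (+)-JQ1 against LPS, -0.70 to 0.027 for IL-10 alone, -0.084 to 0.36 for LPS within (+)-JQ1, -0.60 to 0.94 within IL-10 and -0.54 to 0.15 for the interaction with IL-10 at P27. At P28 it was -0.31 to 0.40 for LPS, -0.44 to 0.23 for IL-10 under LPS, -0.064 to 0.42 for LPS within (+)-JQ1 and -0.11 to 0.24 for the interaction with (+)-JQ1. P26 ranged from -0.020 to 1.17 for (+)-JQ1 alone and -0.40 to 1.26 for IL-10 alone, and P12 from -0.016 to 0.18 between the pretreatments and -1.03 to 0.61 for the interaction with IL-10. Of the 39 peaks 20 averaged under 50 counts per library, and differences at these are the least certain. Every comparison is limited by 3 mice, and the counts cover peaks only.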
